A study of Homo sapiens with 2 samples.

Results

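The genes described here are 10 RNA-binding splicing regulators, MBNL1, MBNL2, MBNL3, ESRP1, ESRP2, CELF1, RBFOX2, QKI, PTBP1 and PTBP3, taken by symbol from a table of 56690 genes in Tu212 cells. Tu212 is an epithelial-derived line from a head and neck carcinoma. The cells were treated for 48 h either with pEZ-PRMT5, a plasmid for overexpression of PRMT5, or with the empty pEZ-vector, and polyadenylated RNA of each was sequenced as 1 library. Both groups thus carried a pEZ plasmid, and the sources used here do not say whether cells were pooled or cloned. The members were chosen with their values in this comparison known, so their levels and ratios are a description of these libraries, and with 1 library per group no difference has a replicate check or a test.

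Splicing regulators of this kind bind short motifs in introns and exons of pre-mRNA and decide, by where they sit, whether a nearby exon is kept or skipped. Muscleblind (MBNL) and CELF proteins act against each other on many exons, ESRP proteins hold the splicing pattern of epithelia, RBFOX2 and QKI act on many exons that switch when epithelial cells become mesenchymal, and PTBP proteins mostly silence exons. PRMT5 methylates arginines of the Sm proteins at the core of the spliceosome. The table counts reads per gene and does not resolve isoforms, so it gives the amount of each regulator's transcripts and not the exons they act on.

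Gene counts summed to 19908258 in the PRMT5 overexpression library and to 14119997 in the vector control library. PRMT5 was at 293 CPM (read counts per 1e6 reads of the TMM-scaled library) against 145 CPM in the vector control, a log2 ratio of 1.01. Every log2 ratio is PRMT5 overexpression over vector control, and its interval is an exact 95% counting interval that leaves out any difference between cultures. Of the genes that mark the labelled epithelial origin, the basal keratin gene KRT5 stood at 5077 and 4575 CPM in the PRMT5 overexpression and vector control libraries. The cell adhesion gene EPCAM, named after its values were seen, stood at 238 and 223 CPM.

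All 10 regulators passed the floor of 10 reads, and each averaged 50 or more. In the PRMT5 overexpression library 2 of the 10, MBNL3 and PTBP1, lay below the vector control by over 2-fold, and 0 lay above it by as much. The other 8 lay within 1.5-fold. Of all 17777 genes past that floor in either library, 1.94% were lower by 2-fold or more and 2.90% higher, and 5.33% and 7.06% were so by 1.5-fold. Of the 13282 genes averaging 50 or more reads, 0.806% were lower and 0.798% higher by 2-fold, and 2.42% and 2.70% by 1.5-fold. The median log2 ratio of the 10 regulators was -0.15, beside 0.00219 over the 17777 genes. Nothing is read from these shares, since the members were picked from this comparison. In bulk RNA, fewer cells that express a gene and less RNA per cell cannot be told apart.

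**Figure D1:**
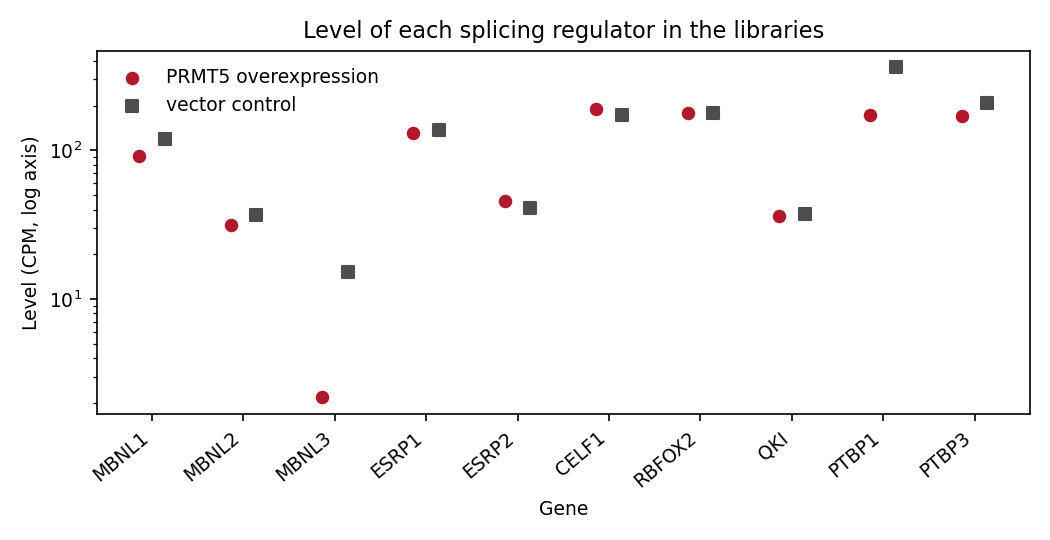
Level of each of the 10 splicing regulators in CPM on a log axis, with circles for the PRMT5 overexpression library and squares for the vector control library (1 library each). MBNL3 stands at 2.18 and 15.3 CPM in the PRMT5 overexpression and vector control libraries, and PTBP1 stands at 172 and 362 CPM.

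Promoters of MBNL3 and PTBP1 are shown because these were the regulators that stood 2-fold apart. Each is 250 bases before to 50 bases after a start site in RefSeq (GRCh38.p14), written 5′ to 3′ on the strand of the gene. Of the 10 regulators, 6 had entries in the promoter table (MBNL1, MBNL2, MBNL3, CELF1, PTBP1 and PTBP3), with 4 starts for MBNL3 and 2 for PTBP1. The sequences printed are those of the first and second MBNL3 starts in the direction of transcription, chrX:132489986-132490285 and chrX:132488989-132489288 on the minus strand, and of the first PTBP1 start, chr19:797202-797501 on the plus strand. The starts further downstream, chrX:132440210-132440509 and chrX:132413559-132413858 for MBNL3 and chr19:797734-798033 for PTBP1, are described but not printed, to keep the sequences few. These starts differ from the ends of the counted genes. The counted MBNL3 gene reaches up to 132489968, so its first window lies wholly upstream of it, and the counted PTBP1 gene begins at 797075, before its first window. Which start the cells used was not measured. Capitals mark matches on either strand to the GC box GGGCGG, the CCAAT box CCAAT, the TATA box TATAAA and the E-box CACGTG, the last being the motif bound by MYC and MAX.
MBNL3 first start: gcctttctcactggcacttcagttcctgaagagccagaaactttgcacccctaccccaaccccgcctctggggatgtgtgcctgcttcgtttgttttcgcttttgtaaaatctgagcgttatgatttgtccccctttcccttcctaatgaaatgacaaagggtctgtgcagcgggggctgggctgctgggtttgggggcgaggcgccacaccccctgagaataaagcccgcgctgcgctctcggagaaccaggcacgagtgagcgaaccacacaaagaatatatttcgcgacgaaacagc
MBNL3 second start: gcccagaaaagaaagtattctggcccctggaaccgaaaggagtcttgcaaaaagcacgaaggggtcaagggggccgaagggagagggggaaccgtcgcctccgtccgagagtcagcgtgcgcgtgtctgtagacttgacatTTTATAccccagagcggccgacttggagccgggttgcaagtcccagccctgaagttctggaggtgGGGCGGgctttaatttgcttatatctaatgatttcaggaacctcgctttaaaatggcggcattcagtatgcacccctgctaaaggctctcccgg
PTBP1 first start: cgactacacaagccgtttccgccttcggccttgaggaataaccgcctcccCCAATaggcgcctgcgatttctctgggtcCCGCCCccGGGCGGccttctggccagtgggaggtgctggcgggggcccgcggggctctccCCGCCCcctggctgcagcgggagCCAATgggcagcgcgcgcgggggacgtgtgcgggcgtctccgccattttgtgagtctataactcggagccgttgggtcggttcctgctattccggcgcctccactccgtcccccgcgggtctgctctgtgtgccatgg

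The first MBNL3 promoter held none of the 4 motifs and had a GC content of 55.0%. The second held 1 GC box and 1 TATA box, at 55.3% GC. Of the MBNL3 promoters not printed, the third held 3 TATA box matches at 37.0% GC, 2 of them overlapping on opposite strands. The fourth held 1 CCAAT box at 49.3% GC. The first PTBP1 promoter held 3 GC boxes and 2 CCAAT boxes at 69.3% GC, and the second, not printed, held 2 GC boxes and no CCAAT box at 82.7% GC. GC content had a median of 58.7% over 35116 promoters of the same length. Over those promoters a GC box was found in 45.0%, a CCAAT box in 34.6%, a TATA box in 11.5% and an E-box in 7.26%. None of the 4 MBNL3 or 2 PTBP1 promoters in the table held an E-box in this window. A match to letters is a description and shows no binding.

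The muscleblind genes encode zinc finger proteins that bind GC-containing motifs flanked by pyrimidines and drive the switch from fetal to adult splicing in muscle, where their capture on repeat RNA underlies myotonic dystrophy. MBNL3, the family member known in mouse cells to hold back muscle differentiation, had 43 reads in the PRMT5 overexpression library and 218 in the vector control library, or 2.18 CPM against 15.3 CPM. It was 6.85-fold lower in the PRMT5 overexpression library, at log2 -2.78 (interval -3.32 to -2.33). Of 1864 other genes with a mean read number within 1.5-fold of that of MBNL3, 1 had a ratio as low or lower, the readthrough gene ISY1-RAB43 with 0 and 206 reads, named after its values were seen. That gene shares exons with RAB43 and ISY1, and its ratio became 0.82 with their reads added, so how its reads were divided is uncertain. MBNL3 (ENSG00000076770) lies on the minus strand of chromosome X from 132369317 to 132489968 in GRCh38.

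The deposited FPKM of MBNL3 was 0.0903 in the PRMT5 overexpression library and 0.646 in the vector control library. On the log2(FPKM + 1) scale its ratio was -0.59, since both values lie under the pseudocount of 1. The protein-coding genes on either side of MBNL3 with 10 or more reads, chosen by position after the result was seen, were RAP2C and HS6ST2. RAP2C, a small GTPase gene 150 kb away, had a log2 ratio of -0.04, and HS6ST2, a heparan sulfate sulfotransferase gene 136 kb away, had one of 0.06. Neither neighbour was near the ratio of MBNL3, and both counting intervals included 0.

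MBNL1, the most abundant muscleblind gene in most adult tissues, had 1793 reads in the PRMT5 overexpression library and 1704 in the vector control library, which is 91.0 CPM against 119 CPM. This corresponds to log2 -0.39 (interval -0.49 to -0.30). Its antisense gene MBNL1-AS1 held 14 and 16 reads, and the ratio was -0.40 with those reads added. MBNL2, which acts mainly in the brain, had 621 reads in the PRMT5 overexpression library and 524 in the vector control library, or 31.5 CPM against 36.7 CPM. This corresponds to log2 -0.22 (interval -0.39 to -0.05). All 3 muscleblind genes were thus lower in the PRMT5 overexpression library beyond counting error, MBNL3 by far the most. The ratios of MBNL1 and MBNL2 lay inside the central 95% of genes with like read numbers. MBNL1 was at the edge of that range, with a ratio of -0.393 beside a lower limit of -0.398.

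Reads of the 3 muscleblind genes together came to 2457 in the PRMT5 overexpression library and 2446 in the vector control library, or 125 CPM against 172 CPM. Their summed log2 ratio was -0.46 (interval -0.54 to -0.38). MBNL3 took 1.75% of these reads in the PRMT5 overexpression library (interval 1.27% to 2.35%) and 8.91% in the vector control library (7.81% to 10.1%). MBNL1 took 73.0% and 69.7%, and MBNL2 25.3% and 21.4%. These shares are set within each library and do not depend on how the libraries were scaled to each other, although gene length enters them.

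**Figure D2:**
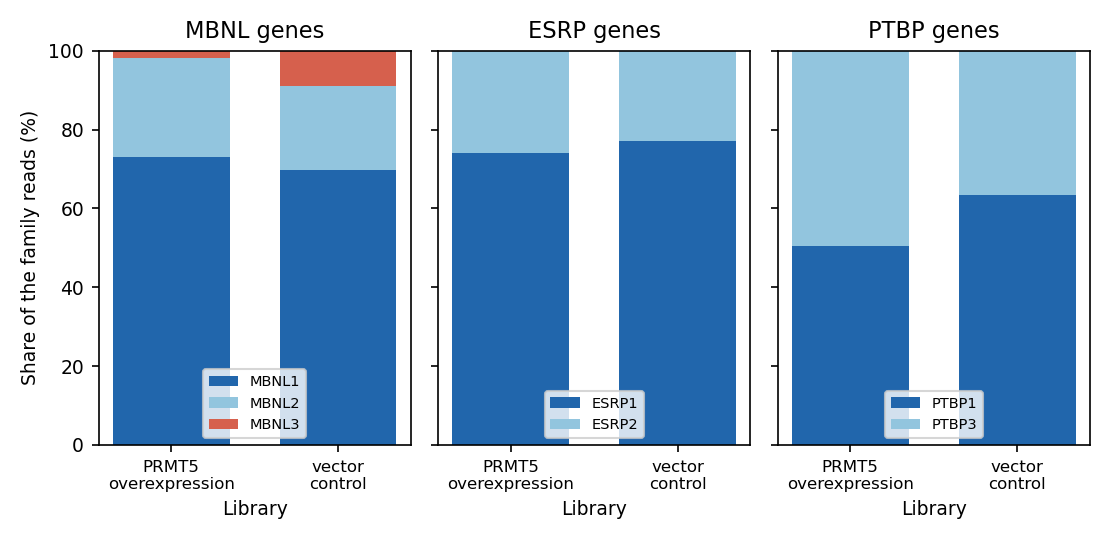
Share of the reads of each gene family (percent) held by its members, with the PRMT5 overexpression library left of the vector control library in each panel. MBNL3 holds 1.75% and 8.91% of the MBNL reads, and PTBP1 holds 50.4% and 63.4% of the reads of PTBP1 and PTBP3.

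The polypyrimidine tract binding proteins bind runs of C and U and keep exons out of mRNA. PTBP1, the form found in most non-neuronal cells, had 3399 reads in the PRMT5 overexpression library and 5159 in the vector control library, or 172 CPM against 362 CPM. It stood at 0.477 of its vector control level, with a log2 ratio of -1.07 (interval -1.13 to -1.01). Although the PRMT5 overexpression library was 1.41 times deeper, it held fewer PTBP1 reads in absolute number. PTBP1 (ENSG00000011304) lies on the plus strand of chromosome 19 from 797075 to 812327 in GRCh38.

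Among 773 other genes with a mean read number within 1.5-fold of that of PTBP1, 3 had a ratio as low or lower. These, named for that reason after their values were seen, were the actin-binding protein gene LASP1 at -1.74, PHLDA1 at -1.32 and the collagen chaperone gene SERPINH1 at -1.18. The nearest protein-coding genes on either side with 10 or more reads, again chosen by position, were MISP, of the mitotic spindle, and CFD. MISP, 32.8 kb away, and the complement factor gene CFD, 47.3 kb away, had log2 ratios of -0.05 and -0.07. Neither of these neighbours stood apart from 0 beyond counting error.

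PTBP3, a paralog with wide expression in blood and epithelial cells, had 3342 reads in the PRMT5 overexpression library and 2983 in the vector control library, or 170 CPM against 209 CPM. At log2 -0.30 (interval -0.37 to -0.23) it lay inside the range of -0.40 to 0.53 that held 95% of genes with like read numbers. PTBP1 took 50.4% of the reads of PTBP1 and PTBP3 in the PRMT5 overexpression library (interval 49.2% to 51.6%) and 63.4% in the vector control library (62.3% to 64.4%). The sum of the 2 genes was 342 CPM in the PRMT5 overexpression library against 571 CPM in the vector control library, a log2 ratio of -0.74 (interval -0.79 to -0.69).

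PTBP2, the neuronal paralog, is background to these genes because PTBP1 is known to hold its mRNA low through exon skipping and decay, and it is named here after its values were seen. PTBP2 had 217 reads in the PRMT5 overexpression library and 125 in the vector control library, at 11.0 and 8.77 CPM. On the log2 scale it stood at 0.33 (interval 0.00451 to 0.66), so its lower bound lay close to 0. RAVER1 and MATR3, which encode corepressors that bind PTBP1 and were also named after their values were seen, had log2 ratios of -0.22 and 0.22, and RAVER1 stood at -0.14 with the reads of an antisense gene added.

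The epithelial splicing regulatory proteins bind GU-rich motifs and promote the epithelial exon choice in FGFR2, CD44, CTNND1 and ENAH. ESRP1 had 2584 reads in the PRMT5 overexpression library and 1966 in the vector control library, or 131 CPM against 138 CPM. This put ESRP1 at log2 -0.07 (interval -0.16 to 0.01). ESRP2 had 906 reads in the PRMT5 overexpression library and 580 in the vector control library, or 46.0 CPM against 40.7 CPM, and a log2 ratio of 0.18 (interval 0.02 to 0.33). The pair summed to 177 CPM in the PRMT5 overexpression library against 179 CPM in the vector control library, a log2 ratio of -0.01.

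ESRP2 shares 149 exon bases with NFATC3 on the opposite strand and 35 with AC020978.5 on its own strand. AC020978.5 held 362 reads in the PRMT5 overexpression library and 67 in the vector control library, a log2 ratio of 1.95. With the reads of both overlapping genes added, the ratio of ESRP2 was 0.08 and its interval of -0.01 to 0.17 included 0. NFATC3 held 1132 and 993 reads, more than ESRP2, so this sum largely follows NFATC3 and cannot give the ratio of ESRP2 itself. How many ESRP2 reads came from the shared bases was not measured.

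ESRP genes are known to be repressed by ZEB1 and ZEB2 when epithelial cells become mesenchymal, so a list of 20 epithelial identity genes and mesenchymal factors was set beside them. Of its 18 members with 10 or more reads, 0 stood 1.5-fold apart in either direction, where 5.33% of all genes tested were that much lower and 7.06% higher. The list median was 0.03. The ZEB1 gene had 18 reads in the PRMT5 overexpression library and 9 in the vector control library, and ZEB2 had 1 and 3. The E-cadherin gene CDH1 had 8101 and 4553 reads. The log2 ratio of CDH1 was 0.36 (interval 0.31 to 0.42). That of the mesenchymal filament gene VIM, with 128 and 120 reads, was -0.37 (interval -0.74 to -0.00255). The mesenchymal factor genes ZEB1 and TWIST1 stood at 0.49 and 0.20 and the epithelial factor gene OVOL1 at -0.15, all with intervals that included 0. Of the 18 genes, 8 lay below 0 and 10 above, with epithelial and mesenchymal genes on each side. Counting intervals lay wholly above 0 for CDH1, EPCAM, KRT5, KRT14, KRT8 at 0.41 and GRHL3 at 0.48. They lay wholly below 0 for VIM, SNAI2 at -0.20 and TP63 at -0.04. ZEB1, ZEB2, CDH1, VIM, TWIST1, OVOL1, KRT14, KRT8, GRHL3, SNAI2 and TP63 were named after their values were seen.

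CELF1, which binds GU-rich RNA, acts against MBNL proteins on many exons and promotes decay of mRNAs that it binds, had 3727 reads in the PRMT5 overexpression library and 2468 in the vector control library. These were 189 CPM and 173 CPM, a log2 ratio of 0.13 (interval 0.05 to 0.20). CELF1 shares exon bases with NDUFS3 and PTPMT1 on the opposite strand, and its ratio was 0.11 with their reads added. CELF1 and MBNL3 therefore lay on opposite sides of 0, CELF1 by a small amount that lay inside the range of genes with like read numbers.

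RBFOX2, which binds the motif UGCAUG, had 3510 reads in the PRMT5 overexpression library and 2556 in the vector control library, or 178 CPM against 179 CPM. This put RBFOX2 at log2 -0.01 (interval -0.08 to 0.06), or at 0.01 with median-of-ratios size factors or TMM over all genes. QKI, a KH-domain protein that guides splicing in glia and promotes circular RNAs, had 710 reads in the PRMT5 overexpression library and 536 in the vector control library, or 36.0 CPM against 37.6 CPM. On the log2 scale it stood at -0.06 (interval -0.23 to 0.10). For ESRP1, RBFOX2 and QKI the counting interval included 0, so no difference was detectable at this depth.

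**Figure D3:**
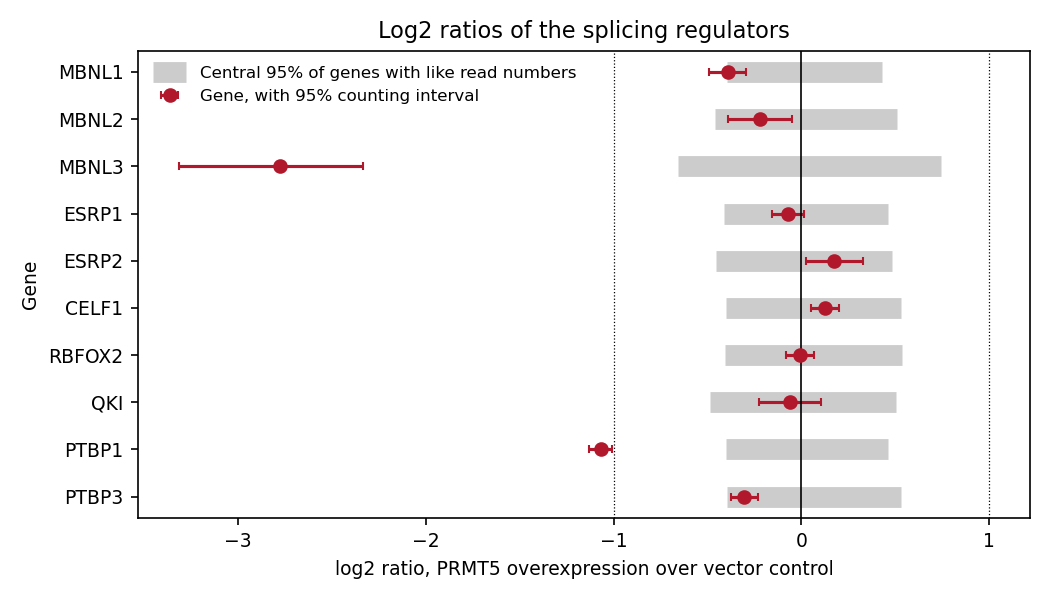
Log2 ratio of each regulator, PRMT5 overexpression over vector control, with its 95% counting interval, over grey bars for the central 95% of genes whose mean read number lies within 1.5-fold. MBNL3 at -2.78 and PTBP1 at -1.07 lie to the left of their grey bars, and the other 8 genes lie inside theirs.

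Counting intervals lay wholly below 0 for 5 regulators (MBNL1, MBNL2, MBNL3, PTBP1 and PTBP3) and wholly above 0 for ESRP2 and CELF1. Of the 10 genes, 7 shared no exon bases in GENCODE release 29 with another gene of 10 or more reads, MBNL3 and PTBP1 among them. Stretches of 50 bases, 375 to 1125 per regulator, were taken every 10 bases along its longest transcript. None occurred in transcripts of other genes, once the counted genes that share its exon bases were left out of the search. Members of a family were thus distinct from each other at that length.

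Levels can be set between genes only per length, here as CPM per kilobase of the longest protein-coding transcript in GENCODE release 29. PTBP1 was the highest on this scale, at 46.7 CPM per kb in the PRMT5 overexpression library and 98.0 in the vector control library. ESRP1 came next, at 34.4 and 36.2 CPM per kb. RBFOX2, CELF1 and PTBP3 stood close together, between 21.2 and 25.7 CPM per kb in the PRMT5 overexpression library and between 22.6 and 26.2 in the vector control library.

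MBNL1 followed at 14.1 CPM per kb in the PRMT5 overexpression library and 18.5 in the vector control library, ahead of ESRP2 at 12.1 and 10.7. MBNL2 stood at 6.75 and 7.87 CPM per kb and QKI at 3.81 and 3.97. MBNL3 was lowest, at 0.193 CPM per kb in the PRMT5 overexpression library and 1.35 in the vector control library. Taken per kilobase of merged exons, ESRP1 at 26.9 CPM per kb was above PTBP1 at 25.1 in the PRMT5 overexpression library, so the first place there depends on the length used. Other places do too. Per merged exons, MBNL2 at 7.49 was above ESRP2 at 7.31 in the vector control library. PTBP3 ranked 3 in the PRMT5 overexpression library per merged exons, against 5 per transcript length. Which transcript of each gene the cells made was not measured, and without replicates neighbours in this order cannot be told apart beyond their spread.

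Other regulators of tissue splicing were described from a list of 35 genes outside the 10. Of these, 23 reached 10 reads in either library and 7 had 0 reads in both, among them RBFOX1, CELF3, SRRM4 and ELAVL4, genes best known from neurons or muscle that were named after their values were seen. The median log2 ratio of the 23 was 0.02, with 11 below and 12 above 0. At 1.5-fold, 0 were lower and 2 higher, MSI2 and KHDRBS3, beside 5.33% lower and 7.06% higher over all genes tested.

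MSI2, a Musashi protein that controls translation of bound mRNAs and is common in stem and carcinoma cells, had the highest ratio of the measured genes, with 2153 reads in the PRMT5 overexpression library and 825 in the vector control library. It stood at 109 CPM against 57.9 CPM, a log2 ratio of 0.92 (interval 0.80 to 1.03). KHDRBS3, a STAR-family protein related to QKI, with 14 and 6 reads, stood at log2 0.68 (interval -0.71 to 2.42), which included 0. The most-read gene of the list, the splicing and decay factor KHSRP, was at 324 CPM against 294 CPM, a log2 ratio of 0.14.

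**Figure D4:**
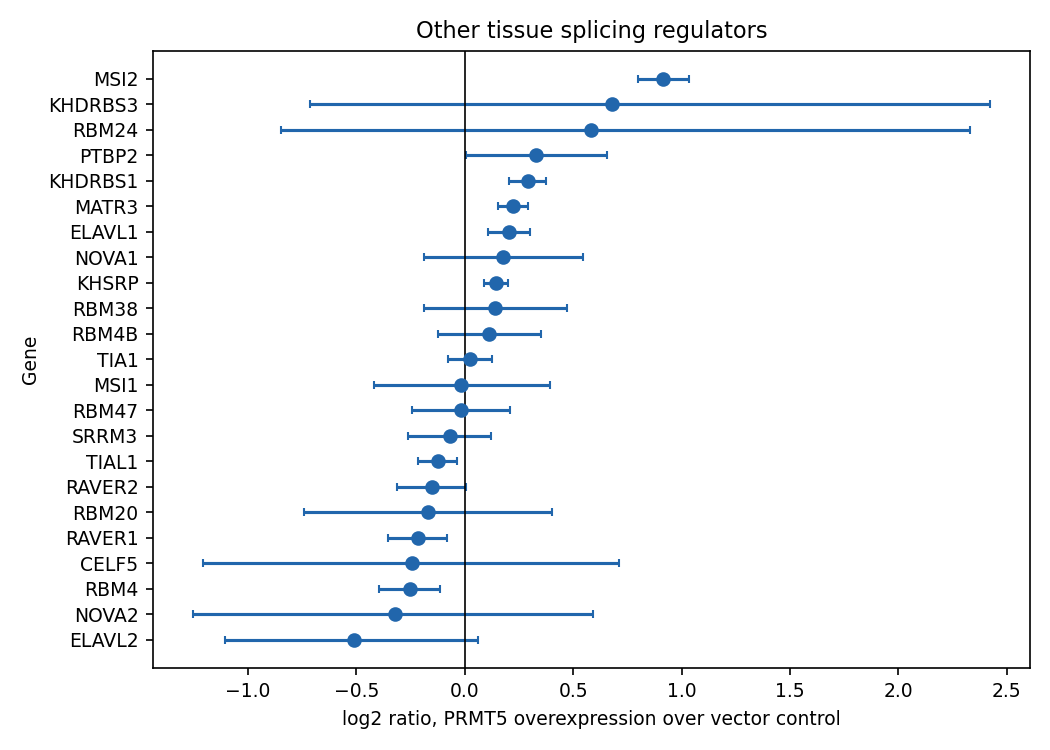
Log2 ratios, PRMT5 overexpression over vector control, of the 23 other tissue splicing regulators that reached 10 reads in either library, each with its 95% counting interval. MSI2 at 0.92 is the only gene whose whole interval lies above 0.66, the upper bound of PTBP2.

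Genes that carry exons known to be set by these regulators were described at the gene level only. Of 13 measured genes with known MBNL or CELF exons, 1 was lower and 0 higher by 1.5-fold, with a median of -0.05. Over all genes tested, 5.33% were lower and 7.06% higher by as much, and nothing is read from the count. The lower gene, the calcium pump gene ATP2A1, with 34 and 40 reads, stood at log2 -0.68, or -0.11 once summed with the genes that share its exons. That sum largely follows a gene on the opposite strand with 307 and 211 reads. NUMA1, a spindle protein gene and the most-read of the list, was at 896 CPM against 915 CPM, a log2 ratio of -0.03 that turned to 0.01 with the genes that share its exons.

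Among 11 genes with known ESRP or RBFOX2 exons, 1 was lower and 0 higher by 1.5-fold, with a median of -0.06. The shares over all genes tested were 5.33% lower and 7.06% higher. CTNND1, which encodes p120 catenin, had 4548 reads in the PRMT5 overexpression library and 5504 in the vector control library, or 231 CPM against 386 CPM. On the log2 scale it stood at -0.74 (interval -0.80 to -0.69).

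Among 12 genes with known PTBP or QKI exons, 0 were lower and 1 higher by 1.5-fold, with a median of 0.04. The shares over all genes tested were 5.33% lower and 7.06% higher. TPM1, a tropomyosin gene with mutually exclusive exons, had 962 reads in the PRMT5 overexpression library and 459 in the vector control library, or 48.8 CPM against 32.2 CPM. On the log2 scale it stood at 0.60 (interval 0.44 to 0.76), and 0.55 once summed with its antisense gene. PKM, whose exon choice PTBP1 is known to set, was at 1449 CPM against 1572 CPM, a log2 ratio of -0.12. Which of the alternative exons of these genes were used is not analysed here.

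The protein-coding genes nearest to MBNL3 in the plane of the log2 CPM values of the 2 libraries were LRRC8E, C7orf55-LUC7L2, ZBTB3 and ZNF286B. Their distances were 0.347, 0.726, 0.759 and 0.787 on the log2 scale. LRRC8E had 40 reads in the PRMT5 overexpression library and 173 in the vector control library, a log2 ratio of -2.55 that became -1.40 with the reads of an antisense gene. ZBTB3, with 62 and 148 reads and a ratio of -1.70, shares no exon bases with a counted gene. The ratio of C7orf55-LUC7L2 became 0.12 once summed with the genes it joins, and 58.3% of the stretches of ZNF286B occur in other genes, so both are uncertain.

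Markers of other cell types were read from lists. Those given at 0 reads, with PTPRC, CD3E, PDGFRB and MFAP5, were named after their values were seen. Of 10 fibroblast markers, 6 were measured. Of these, 3 lay 2-fold or more below the vector control in the PRMT5 overexpression library, as did 1.94% of all genes tested. They were COL1A2 with 7 and 26 reads, COL3A1 with 2 and 11 and DCN with 0 and 12. The others were COL1A1 at log2 -0.23, PDGFRB at -0.24 with 29 and 25 reads and MFAP5 at 0.32 with 21 and 12. The list summed to 82.2 CPM in the PRMT5 overexpression library and 99.4 CPM in the vector control library, most of it COL1A1 at 79.0 and 92.6 CPM, and FAP had 0 reads in both. Fibroblast markers other than COL1A1 thus had few reads, while COL1A1 had 1557 and 1321. Of the 17777 genes behind the 1.94%, 13282 averaged 50 or more reads, and 0.806% of those were that much lower. The 1.94% is thus not the share among genes with as few reads as COL1A2, COL3A1 and DCN.

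Of 8 leukocyte markers, 2 were measured. Of these 1, the integrin gene ITGAM with 3 and 12 reads, lay 2-fold or more below the vector control in the PRMT5 overexpression library. Over all genes tested, most of them better read than ITGAM, 1.94% were that much lower. The list summed to 17.2 CPM in the PRMT5 overexpression library and 21.8 CPM in the vector control library, most of it CD68. The ratio of CD68 was -0.30, and turned to 0.32 with the genes that share its exons. That sum largely follows a gene with 715 and 301 reads, more than CD68. Under the floor of 10 reads, PTPRC had 4 and 0 reads, CD3E 0 and 6, and CD3D 0 in both.

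The 6 endothelial markers, of which 2 were measured and 0 lay 1.5-fold apart, summed to 4.57 CPM in the PRMT5 overexpression library and 6.03 CPM in the vector control library, most of it VWF with 69 and 67 reads. CDH5 and KDR had 0 reads in both. The 10 muscle and neuron markers summed to 3.80 and 3.02 CPM. Of the 2 measured, 1 was higher by 1.5-fold, the titin gene TTN with 39 and 17 reads and a ratio of 0.70. With the genes that share its exons the ratio was -0.18, but that sum largely follows an antisense gene with 349 and 301 reads. ACTA1, MYH7 and MYOG were at 0 in both. Over all genes tested, 5.33% were lower and 7.06% higher by 1.5-fold. The part of these cells in the values of MBNL3 and PTBP1 was not tested.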

How the data were processed

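Polyadenylated RNA of Tu212 cells was read from a deposited table of 58302 rows with 1 library per group, grouped by the genotype in the labels. Per the submitters' processing notes, which give no roles, the tools were StringTie 1.3.4b, HISAT2 2.1.0, edgeR and CASAVA 1.8, and the builds hg38 and GRCh38. The sources used here do not state strandedness. Raw counts per gene were used as deposited by the authors. The authors also deposited FPKM values, which equalled count over total count and 1 fixed length per gene within 1% in 100% of 11478 genes with over 100 reads in both libraries, and these served only as an alternative. No per-sample column was left unused.

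Rows of a symbol were summed. Library sizes were scaled by TMM (edgeR 4.0.16, R 4.3.3) over genes reaching 10 reads in either library, giving factors of 0.990 for PRMT5 overexpression and 1.01 for the vector control. Log2 CPM used a prior count of 1. Intervals for ratios and shares are exact Clopper-Pearson intervals at 95%. Reads are not independent molecules, so intervals cover counting error only. No test across genes was run, since genes are not replicates. Overlaps and transcripts came from GENCODE release 29 (GRCh38), in which 58039 gene IDs of the table were found. A sum over exon-sharing genes takes all reads of each partner, so it can follow a partner with more reads.

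The members and gene lists were chosen with earlier results of these data known. Genes were named by a rule: PRMT5, the 10 regulators, up to 4 list genes with the largest ratios past 1.5-fold, the most-read gene of each list, genes that share exons with a member and the 4 nearest to MBNL3; genes beyond it are marked in the text. A gene that this rule names is not reported here. The procedure was tested on simulated data. The alternatives tried were total counts, size factors from DESeq2 1.42.0, prior counts of 0.1 and 5, FPKM with a pseudocount of 1, the highest row per symbol, sums over exon-sharing genes, other floors, protein-coding genes only and a 1.5-fold threshold. Figures were drawn with matplotlib 3.10.9, and scipy 1.17.1, pandas 2.3.3 and numpy 2.4.6 ran under Python 3.11.15.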

Additional observations from a re-analysis of the deposited data

How the results depend on the processing

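Of 80 values recalculated for the 10 regulators, 79 stayed inside their counting intervals. The exception was MBNL3, at -0.594 with deposited FPKM and a pseudocount of 1, which by construction shrinks ratios of genes under 1 FPKM. Of 16 recalculations for MBNL3 and PTBP1, 15 stayed at least 2-fold lower. Both counts include values that could not move. Each regulator has 1 row, so the highest row per symbol gave the main value by construction. So did the sum over exon-sharing genes for the 7 regulators without such genes, MBNL3 and PTBP1 among them. The sign of RBFOX2, near 0, turned under both median-of-ratios size factors and TMM over all genes. No scaling moved the median of all genes by over 0.1. Over all genes, 516 lay above and 344 below the vector control by 2-fold. Without a floor these counts were 2145 and 2872, a floor of 50 reads left 136 and 118, and a prior count of 5 left 267 and 227. Protein-coding genes alone gave 238 and 219, the deposited FPKM 75 and 54, and the 1.5-fold threshold 1255 and 947. Genes averaging 50 or more reads gave 106 and 107. Stricter sets hold fewer genes and looser ones more by construction. A larger prior count, like the FPKM pseudocount, shrinks ratios of genes with low values by construction. TMM over all genes and the mean of 50 reads were chosen after seeing the data. No paired analysis was possible because neither group holds more than 1 library. MBNL3 rests on 43 reads in the PRMT5 overexpression library, which sets the width of its counting interval, and differences between cultures were not measured.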
